A study of Mus musculus with 22 samples.

Results

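The 10 genes described here are Fos, Fosb, Jun, Junb, Egr1, Nr4a1, Atf3, Ier2, Btg2 and Zfp36, a set of immediate early genes. They were taken by name from the 30735 genes listed in each of the deposited expression tables, and all 10 were found. They were chosen by their measured TPM levels across these groups and the correlation of those levels between libraries, so these values are given as a description. Counts of members past the limma threshold are printed beside the same share of all genes, and nothing is read from them. Transcript levels were measured by RNA sequencing of left ventricular tissue from FVB mice aged 3 to 5 months. The mice carried a VCP transgene (VCP TG) or were wild type (WT), and had undergone transverse aortic constriction (TAC), in which a ligature narrows the aorta and loads the left ventricle with pressure, or sham surgery. VCP is an ATPase that pulls ubiquitin-tagged proteins out of complexes and membranes. At 2 weeks after surgery there were 3 VCP TG TAC, 4 WT TAC, 4 VCP TG sham and 4 WT sham libraries. At 5 weeks there were 3 VCP TG TAC and 4 WT TAC libraries, and no sham group of 5 weeks was analysed here. The labels name no promoter for the transgene.

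Immediate early genes are transcribed within minutes of a stimulus from signals already present in the cell, with no need for new protein. Serum response factor, bound to CArG boxes, and the CREB and ATF factors, bound to cyclic AMP response elements, carry kinase signals to many of their promoters. Their transcripts decay fast. In the heart they are known to answer to mechanical load, hormones, ischaemia and handling of the tissue.

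The members are compact genes. By GENCODE release M21 on GRCm38, the median length of the 10 was 4093 bases with 2 exons in the longest transcript, and that of the 13646 protein-coding genes tested was 24728 bases with 8 exons. Of the 10 members, 7 were shorter than 6000 bases, against 14.3% of the protein-coding genes tested. Of the 10, 9 had 4 exons or fewer, against 29.1%. Jun (chr4:95049034-95052222), Junb (chr8:84974484-84978718) and Ier2 (chr8:84661331-84662852) have 1 exon in the longest transcript. Fos lies at chr12:85473890-85477273, Fosb at chr7:19302696-19310051, Egr1 at chr18:34859823-34864984, Nr4a1 at chr15:101254269-101274795, Atf3 at chr1:191170296-191218039, Btg2 at chr1:134075170-134079120 and Zfp36 at chr7:28376784-28380253.

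RefSeq promoter windows on GRCm38.p6, from 250 bases before to 50 bases after the start of transcription, were at hand for 8 of the 10 members (not for Egr1 and Ier2). The windows were searched on both strands. A CArG box was present in Zfp36, and in 1.63% of all 32851 windows. The palindrome TGACGTCA, the full cyclic AMP response element, was present in Btg2, and in 1.79% of all windows. The shorter TGACG, which every full element also contains, was present in 6 of the 8 members (Fos, Fosb, Junb, Nr4a1, Btg2 and Atf3), and in 20.8% of all windows. The AP-1 motif TGANTCA was in none of the 8, and in 7.81% of all windows. TATAAA was in Fos and Junb (13.6% of all windows), and GGGCGG in 7 of the 8 (35.7%). A match is a run of letters and not a measured binding site. Sequence farther than 250 bases before the start was not searched, so a member without a match may hold the element there.

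The sequences are printed to show these matches in place. They are the 250 bases before the start in Zfp36 and Btg2, which hold the CArG box and the full element, and in Fos and Nr4a1, chosen after the search because they hold more than 1 TGACG. Shorter stretches show the match in Fosb, Junb and Atf3. All are read 5′ to 3′ on the strand of the gene. Capitals mark the CArG box in Zfp36, the full element in Btg2, and the shorter motif, on either strand, in the others. The RefSeq start lies inside the gene as GENCODE draws it for Atf3 (by 34706 bases), Nr4a1 (12577), Zfp36 (1025) and Fosb (6), so these genes have other annotated starts, and the CArG box of Zfp36 belongs to such an inner start.
Zfp36, chr7:28379229-28379478, minus strand: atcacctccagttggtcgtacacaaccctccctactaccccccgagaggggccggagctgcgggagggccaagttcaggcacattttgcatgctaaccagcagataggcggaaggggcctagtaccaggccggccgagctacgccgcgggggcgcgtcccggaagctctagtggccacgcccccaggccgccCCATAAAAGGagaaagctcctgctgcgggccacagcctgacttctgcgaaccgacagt
Btg2, chr1:134079156-134079405, minus strand: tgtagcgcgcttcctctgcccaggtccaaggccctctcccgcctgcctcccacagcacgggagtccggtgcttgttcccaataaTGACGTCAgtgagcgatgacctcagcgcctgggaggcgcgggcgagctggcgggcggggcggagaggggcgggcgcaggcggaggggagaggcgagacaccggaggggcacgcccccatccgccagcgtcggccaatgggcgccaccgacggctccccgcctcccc
Fos, chr12:85473640-85473889, plus strand: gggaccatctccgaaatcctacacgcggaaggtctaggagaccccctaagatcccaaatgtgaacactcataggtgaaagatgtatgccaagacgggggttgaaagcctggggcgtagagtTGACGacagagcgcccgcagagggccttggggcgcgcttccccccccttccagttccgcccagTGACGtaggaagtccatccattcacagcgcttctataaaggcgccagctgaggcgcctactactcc
Nr4a1, chr15:101266596-101266845, plus strand: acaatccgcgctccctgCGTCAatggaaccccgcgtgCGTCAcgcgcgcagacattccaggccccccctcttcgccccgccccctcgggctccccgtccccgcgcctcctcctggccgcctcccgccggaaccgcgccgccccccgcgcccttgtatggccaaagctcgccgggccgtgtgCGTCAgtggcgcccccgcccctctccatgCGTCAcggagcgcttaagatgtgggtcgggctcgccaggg
Fosb, chr7:19310084-19310123, minus strand: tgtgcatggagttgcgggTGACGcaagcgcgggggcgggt
Junb, chr8:84978833-84978872, minus strand: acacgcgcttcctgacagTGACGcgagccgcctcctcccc
Atf3, chr1:191183334-191183358, minus strand: aagctattaatagcattaCGTCAgc

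Values are transcripts per 1000000 (TPM), which are scaled by transcript length, so levels can be set beside each other between genes. TPM does not keep the number of reads, and the depth of each library is unknown. In bulk tissue, fewer cells that express a gene and less RNA per cell cannot be told apart. Over the 22 libraries the median level was 29.2 TPM for Egr1, 27.3 for Zfp36, 13.5 for Jun, 11.7 for Nr4a1, 10.7 for Btg2, 9.89 for Junb, 6.13 for Atf3, 4.00 for Ier2, 3.73 for Fos and 0.773 for Fosb. The ranges of neighbours in this order overlapped in every case. The tables of 2 and 5 weeks are separate, and levels seen across them carry any difference between the tables.

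Levels of these genes differed widely between libraries, also within a group. The highest library exceeded the lowest by 528-fold for Fosb, 420-fold for Fos, 142-fold for Atf3 and 120-fold for Nr4a1. For Jun, the steadiest of the 10, the ratio was 11.8. In all 10 genes the highest library was VCP TG sham replicate 3, in which the 10 levels summed to 1341 TPM, and the next highest sum, 477 TPM, belonged to replicate 2 of the hearts labelled WT at 5 weeks TAC. The sums were 45.5, 45.4 and 46.2 TPM in VCP TG hearts at 2 weeks TAC, and 66.6, 33.4, 47.7 and 42.8 TPM in WT hearts at 2 weeks TAC. In sham hearts they were 278, 158, 1341 and 80.2 TPM with the transgene, and 45.8, 327, 111 and 193 TPM in WT. At 5 weeks TAC they were 156, 206 and 145 TPM in VCP TG hearts, against 62.7, 477, 132 and 305 TPM in WT hearts. The 7 hearts of 2 weeks TAC were low and close together, and 1 sham heart, WT sham replicate 1, lay among them. Sham hearts and WT hearts of 5 weeks TAC were spread widely.

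**Figure D1:**
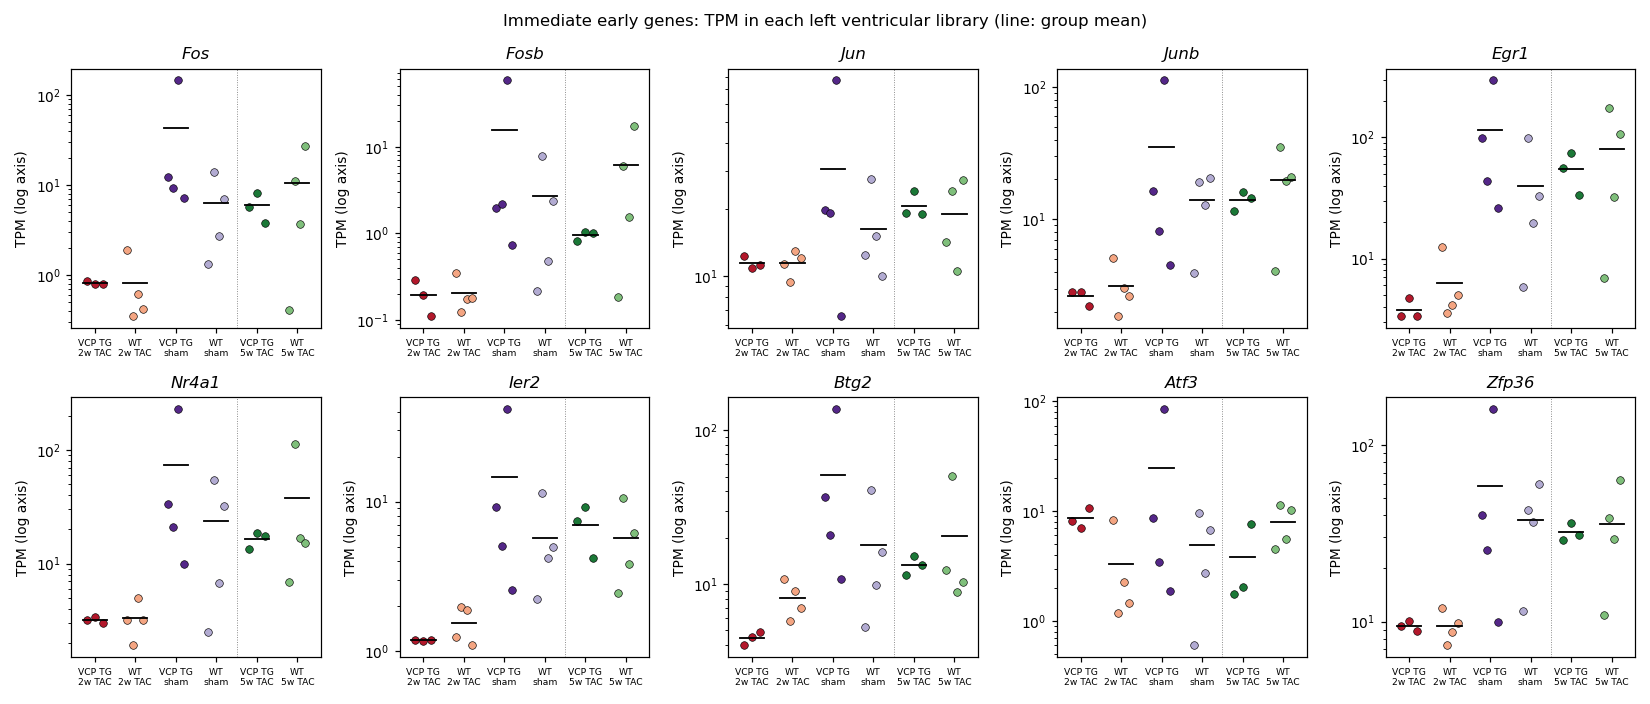
TPM of each of the 10 immediate early genes (log axis) in the 22 libraries, 1 point per library and a line at the group mean, with 3 libraries in each VCP TG TAC group and 4 in every other group; the dotted line parts the tables of 2 and 5 weeks. The 2 weeks TAC groups lie low and close together except for Atf3, and VCP TG sham replicate 3 is the top point of every panel, at 146 TPM for Fos and 296 TPM for Egr1.

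That library also stood apart in other ways. VCP TG sham replicate 3 had 2269 TPM of Myl7, an atrial myosin light chain, a summed level of 10685 TPM over the 7 atrial markers, and 2185 TPM over the 6 red blood cell markers, which in the other 3 VCP TG sham libraries lay between 106 and 282 TPM. Its share of mitochondrially encoded transcripts, 27.9%, was the lowest of the 22 libraries, and the share in VCP TG sham replicate 4, 72.9%, was the highest. Markers of ventricular myocytes (Myh6, Myl2, Tnnt2, Actc1 and Ryr2) summed to 12306 to 27687 TPM in every library. All of these but Myl2 are also expressed in atrial myocytes. Myl2, the ventricular myosin light chain, was at 2293 TPM in VCP TG sham replicate 3, the lowest of the 22 libraries, against 3069 to 7387 TPM in the others. Myl7 was above 100 TPM in 6 libraries. Vcp itself, which checks the labels, was at 135, 125 and 151 TPM in VCP TG hearts and 119, 48.2, 47.7 and 50.3 TPM in WT hearts at 2 weeks TAC. It was at 118, 108 and 39.1 TPM in VCP TG hearts and 62.2, 123, 107 and 47.7 TPM in WT hearts at 5 weeks TAC. Among sham hearts it was at 89.1, 186, 156 and 73.5 TPM with the transgene and 62.9, 82.6, 57.2 and 45.7 TPM in WT. The libraries labelled WT 2 weeks TAC replicate 1, WT 5 weeks TAC replicates 2 and 3 and VCP TG 5 weeks TAC replicate 3 thus went against their labels, which bears on every genotype difference below. In sham hearts Vcp did not fully part the genotypes, since VCP TG replicate 4 (73.5 TPM) lay below WT replicate 2 (82.6 TPM). The part of these properties in the levels of the 10 genes was not tested; medians of gene sets that use VCP TG sham replicate 3 are given with and without it.

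**Figure D2:**
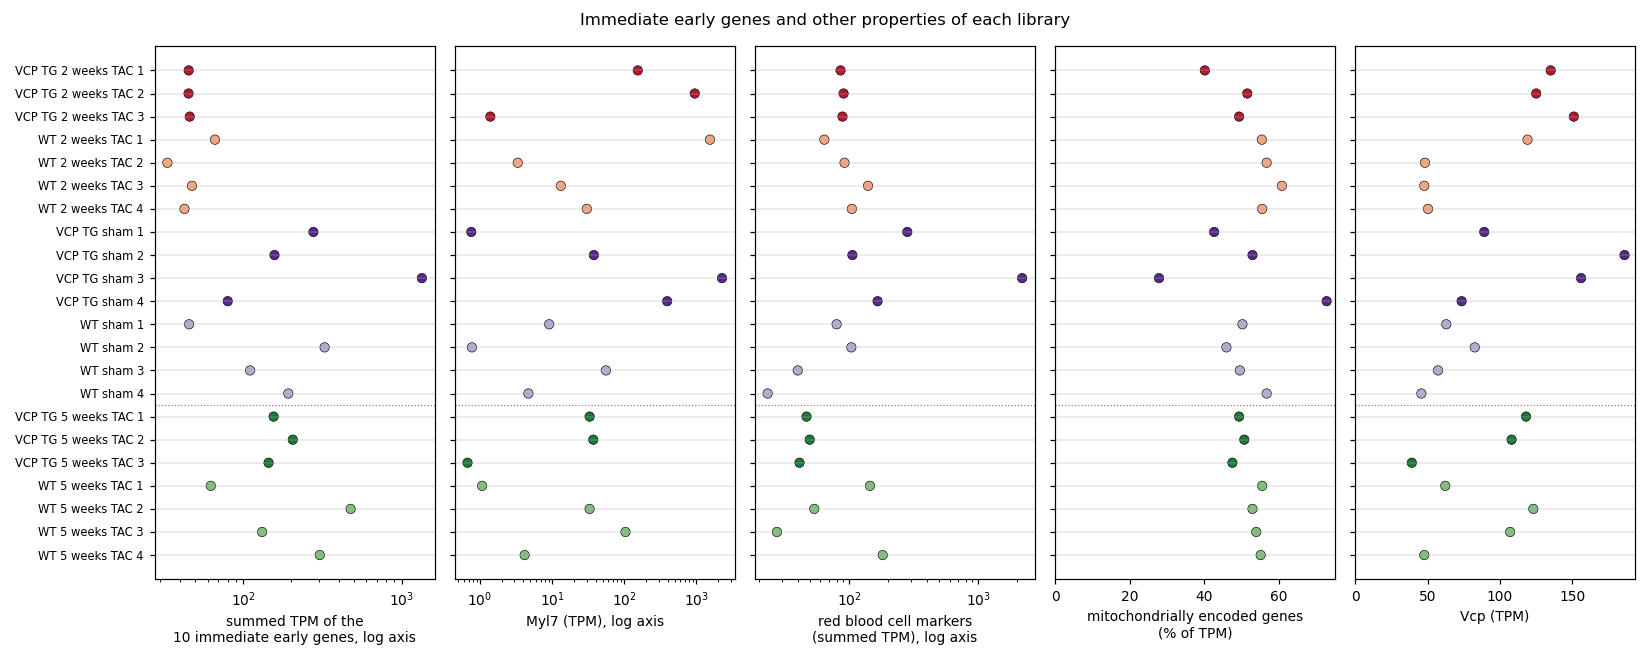
For each of the 22 libraries, from left to right: the summed TPM of the 10 immediate early genes, Myl7 and the summed red blood cell markers (log axes), the percentage of TPM in mitochondrially encoded genes, and Vcp in TPM. VCP TG sham replicate 3 has the highest value in the first 3 panels (1341, 2269 and 2185 TPM) and the lowest mitochondrial share (27.9%).

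At 2 weeks TAC against sham the question was how the pressure-loaded ventricle differs in each genotype. Fos codes for the inducible partner of Jun in the AP-1 transcription factor. In VCP TG hearts Fos was at 0.868, 0.794 and 0.794 TPM after TAC, against 12.3, 9.34, 146 and 7.15 TPM after sham. In WT hearts it was at 1.92, 0.348, 0.618 and 0.424 TPM after TAC, against 1.34, 14.0, 2.70 and 7.09 TPM after sham. The VCP TG groups did not overlap; in WT the highest TAC library lay above the lowest sham library. The difference in log2(TPM + 1) was -3.47 ± 0.88 (standard error) in VCP TG and -1.71 ± 0.82 in WT.

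Egr1, a zinc finger factor, had the lowest log2 difference of the 10 in both genotypes on this scale. With a pseudocount of 0.1 Fos was lowest (-4.35 in VCP TG, -2.56 in WT), and in WT Fos was also lowest on rescaling (-2.21), Zfp36 without sham replicate 2 (-1.57), and Nr4a1 without TAC replicate 3 (-2.01) or sham replicate 3 (-2.15). Egr1 was at 3.33, 4.71 and 3.35 TPM in VCP TG TAC hearts, against 99.5, 43.3, 296 and 26.1 TPM in VCP TG sham hearts (log2 difference -4.03 ± 0.88). In WT it was at 12.5, 3.58, 4.15 and 5.00 TPM after TAC, against 5.78, 99.9, 19.7 and 32.7 TPM after sham (-1.99 ± 0.82). Each VCP TG TAC heart lay below every VCP TG sham heart, whereas in WT the ranges met through the library labelled TAC replicate 1 and sham replicate 1. Egr1 was thus low in most hearts of 2 weeks TAC and high in most sham hearts.

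Fosb, Junb and Jun, the other AP-1 subunits, differed in size of change. Fosb was at 0.287, 0.193 and 0.110 TPM in VCP TG TAC hearts, against 1.94, 2.16, 58.3 and 0.730 TPM in VCP TG sham hearts, and at 0.345, 0.124, 0.176 and 0.181 TPM in WT TAC hearts, against 0.219, 7.77, 0.481 and 2.35 TPM in WT sham hearts. At such low TPM the pseudocount of 1 holds the log2 difference down (-2.22 ± 1.03 in VCP TG, -1.16 ± 0.95 in WT). With a pseudocount of 0.1 the VCP TG value was -3.75.
Junb was at 2.85, 2.83 and 2.21 TPM in VCP TG TAC hearts, against 16.4, 8.16, 112 and 4.54 TPM in VCP TG sham hearts (-2.29 ± 0.82), with no overlap. In WT hearts it was at 5.13, 1.85, 3.01 and 2.62 TPM after TAC, against 3.92, 19.1, 12.9 and 20.4 TPM after sham (-1.72 ± 0.76), and here sham replicate 1 lay within the TAC range. Jun varied little among the 7 TAC hearts, at 12.3, 10.8 and 11.2 TPM in VCP TG and 11.3, 9.34, 12.9 and 12 TPM in WT. Sham hearts had 19.8, 19.2, 77.0 and 6.54 TPM of Jun with the transgene and 12.4, 27.5, 15.2 and 10.01 TPM in WT, so both pairs of groups overlapped (-0.85 ± 0.53 in VCP TG, -0.39 ± 0.49 in WT).

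Nr4a1, an orphan nuclear receptor, was at 3.2, 3.38 and 3.00 TPM in VCP TG TAC hearts, against 33.4, 21, 229 and 9.97 TPM in VCP TG sham hearts (-3.15 ± 1.03). WT hearts had 3.2, 1.91, 4.94 and 3.17 TPM after TAC, against 2.5, 54.1, 6.72 and 32.1 TPM after sham (-1.84 ± 0.95). As with Fos, only the VCP TG groups were apart, and WT sham replicate 1 was the sham heart at TAC level. Ier2, a small nuclear protein, was at 1.19, 1.17 and 1.18 TPM in VCP TG TAC hearts, against 9.18, 5.02, 41.6 and 2.57 TPM in VCP TG sham hearts (-2.17 ± 0.63). In WT it was at 1.24, 1.96, 1.89 and 1.09 TPM after TAC, against 2.23, 11.5, 4.19 and 4.96 TPM after sham (-1.24 ± 0.59). With all libraries, Ier2 was the only member whose groups did not overlap in both genotypes; without the library labelled WT TAC replicate 1, Fos, Fosb, Junb and Egr1 were also apart in both.

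Btg2 and Zfp36 act on mRNA after transcription: Btg2 restrains proliferation and brings the deadenylase complex to mRNAs, and Zfp36 binds AU-rich elements and speeds the decay of cytokine mRNAs. Btg2 was at 3.98, 4.51 and 4.84 TPM in VCP TG TAC hearts, against 37.0, 20.8, 137 and 10.7 TPM in VCP TG sham hearts (-2.65 ± 0.71). In WT hearts Btg2 was at 10.8, 5.73, 9.02 and 7.0 TPM after TAC, against 5.27, 40.6, 9.89 and 16.2 TPM after sham (-0.74 ± 0.66). The VCP TG groups were apart and the WT groups overlapped. Zfp36 was at 9.47, 10.1 and 8.86 TPM in VCP TG TAC hearts, against 40.2, 25.5, 160 and 10.04 TPM in VCP TG sham hearts (-1.83 ± 0.70). WT hearts had 12, 7.33, 8.77 and 9.85 TPM after TAC, against 11.5, 42.7, 36.8 and 60.2 TPM after sham (-1.70 ± 0.65). In both genotypes 1 sham heart (VCP TG replicate 4, WT replicate 1) had Zfp36 inside the TAC range.

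In VCP TG hearts Atf3, a stress-induced factor of the CREB and ATF family, did not follow the other members. It was at 8.11, 6.98 and 10.7 TPM in VCP TG TAC hearts, against 8.68, 3.43, 84.8 and 1.89 TPM in VCP TG sham hearts (-0.10 ± 1.03). In WT hearts it was at 8.22, 1.19, 2.25 and 1.45 TPM after TAC, against 0.599, 9.57, 2.73 and 6.74 TPM after sham (-0.40 ± 0.96). The groups overlapped in both genotypes, and without VCP TG sham replicate 3 the VCP TG difference turned to 0.93. The WT difference was smaller with the library labelled WT TAC replicate 1, at 8.22 TPM, than without it. Without the libraries above 100 TPM of Myl7, in WT only that one, it was -0.86 ± 0.62, beside -0.87 for Btg2 and -0.39 for Jun. Other single libraries moved it the other way. The WT difference of Atf3 was -0.01 without sham replicate 2, -0.16 without sham replicate 4 and -0.17 without TAC replicate 2.

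Over the 10 members, all 10 differences were below 0 in VCP TG (median -2.26, against 0.02 for all 15540 genes tested) and in WT (median -1.47, against -0.13). Without VCP TG sham replicate 3 the VCP TG median was -1.44, against 0.16 for all genes, with 9 of 10 below 0. Groups were apart, with TAC lower, for 7 members in VCP TG (Fos, Fosb, Junb, Egr1, Nr4a1, Ier2 and Btg2), where 0.676% of all genes tested were so. In WT they were apart for 1 member, Ier2, where 13.7% of all genes were. Without the library labelled WT TAC replicate 1, whose Vcp went against its label, they were apart for 6 members in WT (Fos, Fosb, Junb, Egr1, Ier2 and Zfp36), where 19.5% of all genes were, and the WT median was -1.51, with 10 of 10 below 0. Fosb, at most 0.345 TPM after TAC, passed the filter of 1 TPM only through sham libraries. Fos reached 1 TPM after TAC only in the library labelled WT TAC replicate 1. That these 2 were lower after TAC thus partly follows from how they entered. In the limma fit of the 4 groups of 2 weeks, 0 of the 10 members had an adjusted p under 0.05 in VCP TG, where 0.772% of all genes did, and 0 in WT, where 0% did. At an unadjusted p under 0.05 there were 7 members in VCP TG, where 8.77% of all genes were, and 3 in WT, where 11.4% were. In VCP TG, members were called under other settings: 5 with no filter (Fos, Egr1, Nr4a1, Ier2 and Btg2; 6.25% of all genes), 4 on rescaling (0.755%) and 4 with quantile normalization (0.541%), in both cases Fos, Egr1, Ier2 and Btg2. Limma with neither trend nor robust moderation called Fos and Egr1 (0.940%), and the fit of the 7 VCP TG libraries alone called Egr1 (0.364%). The share of all genes called in VCP TG moved with each of the 7 libraries left out, from 1 gene without TAC replicate 1 to 753 genes (4.97%) without sham replicate 3. In that last fit Fos, Egr1 and Ier2 were called. In a fit of the 8 WT libraries alone, 9 members were tested and Junb and Zfp36 were called, where 7.03% of all genes were. These counts rest on the values by which the members were chosen and support nothing further. The difference between the TAC responses, VCP TG minus WT, had a median of -0.99 over the members, against 0.22 over all genes, and -0.07 without VCP TG sham replicate 3, against 0.38 over all genes. In it 0 members were called by limma, where 0.00644% of all genes were. At an unadjusted p under 0.05 there were 0 members, where 5.01% of all genes were.

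**Figure D3:**
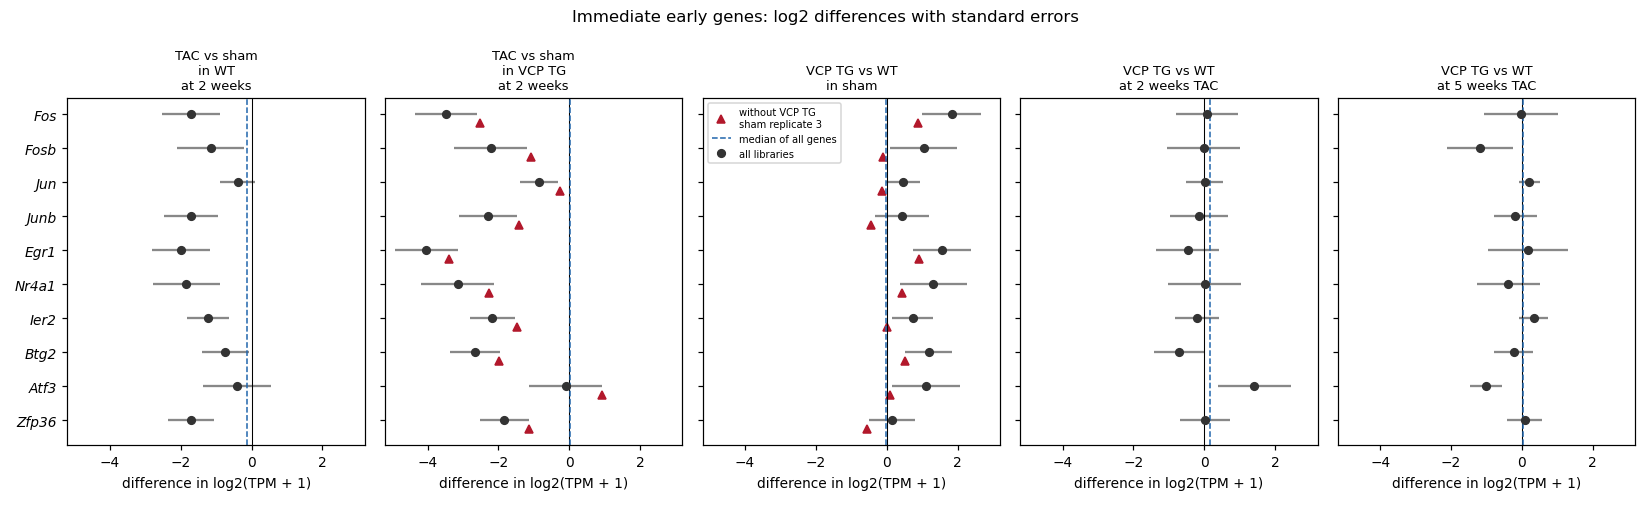
Difference in log2(TPM + 1) of each of the 10 genes in 5 comparisons, as points with standard errors from the limma fits; the dashed line is the median of all genes tested and red triangles show the value without VCP TG sham replicate 3. For TAC against sham all points lie below 0, lowest for Egr1 (-4.03 in VCP TG and -1.99 in WT); between the genotypes in sham hearts all 10 triangles lie left of their points, 4 of them below 0.

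In sham hearts the comparison asks what the transgene does before pressure load. All 10 differences were above 0 (VCP TG minus WT), with a median of 1.08 against -0.01 for all genes, from 0.15 ± 0.65 for Zfp36 to 1.83 ± 0.82 for Fos. No pair of groups was apart for any of the 10, where 0.605% of all genes were higher and 0.431% lower without overlap. The means were 43.7 ± 68.3 TPM for Fos in VCP TG sham hearts and 6.28 ± 5.69 TPM in WT sham hearts (SD, n = 4 each), a spread set by 1 library. Without VCP TG sham replicate 3 the median was 0.05, against -0.17 for all genes, with 6 members above 0 and 4 below, and the range ran from -0.55 for Zfp36 to 0.91 for Egr1. Without the libraries rich in Myl7, chosen after the data were seen, it was 0.44, against 0.07 for all genes. Of the VCP TG sham libraries that setting left only replicates 1 and 2. By limma 0 of the 10 were called, where 0% of all genes were, and 1 member had an unadjusted p under 0.05, as 3.96% of all genes did. Among the other 3 VCP TG sham hearts, replicate 1 was above replicate 2 for 9 members, and replicate 4 was the lowest of the group for all 10. Replicate 2 was the highest WT sham heart for 8 members; Junb and Zfp36 were highest in replicate 4. WT sham replicate 1 was the lowest of its group for 9 members, with Jun the exception.

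Between the genotypes at 2 weeks TAC most members were at similar low levels. The median difference was -0.00 (VCP TG minus WT), against 0.16 for all genes. It moved with the scale: on rescaling it was -0.37, against -0.13 for all genes. With quantile normalization it was -0.28, against -0.05. Under both, 9 of the 10 members lay below 0. Jun averaged 11.4 ± 0.778 TPM in VCP TG hearts and 11.4 ± 1.5 TPM in WT hearts (SD, n = 3 and 4). Zfp36 averaged 9.48 ± 0.623 TPM in VCP TG hearts and 9.49 ± 1.96 TPM in WT hearts. The members at the ends were Btg2 and Atf3. Btg2 was lower in VCP TG hearts with no overlap (3.98, 4.51 and 4.84 TPM, against 10.8, 5.73, 9.02 and 7.0 TPM in WT; -0.72 ± 0.71), where 2.78% of all genes tested were lower and apart. Atf3 was higher in each VCP TG heart than in 3 of the 4 WT hearts; the exception was the library labelled WT TAC replicate 1, at 8.22 TPM (log2 difference 1.41 ± 1.03, and 1.87 without that library). That library had 119 TPM of Vcp and 1546 TPM of Myl7. Without it the median over the members was 0.03, against 0.19 for all genes, with 7 above 0 and 3 below. Of the 10 members, 8 lay below the median of all genes. By limma 0 of the 10 members were called, where 0.0901% of all genes were. At an unadjusted p under 0.05 there were 0 members, where 9.58% of all genes were.

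At 5 weeks TAC most members spread less among the VCP TG hearts than among the WT hearts. Egr1 was at 55.6, 74.6 and 33.3 TPM in VCP TG hearts, against 6.87, 176, 32.2 and 106 TPM in WT hearts (log2 difference 0.16 ± 1.13). Fos was at 5.79, 8.26 and 3.80 TPM in VCP TG hearts, against 0.409, 11.0, 3.66 and 27.3 TPM in WT hearts (-0.03 ± 1.04). Fosb was at 0.816, 1.05 and 1.01 TPM in VCP TG hearts, against 0.184, 5.94, 1.55 and 17.2 TPM in WT hearts (-1.18 ± 0.93). For all 3 the VCP TG values lay inside the WT range. WT replicate 1 had the lowest Fos, Fosb, Junb, Egr1, Nr4a1, Ier2 and Zfp36 of the 7 hearts, and replicate 4 or the library labelled WT replicate 2 the highest.

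The members that topped out in 1 WT heart were not the same in the other. Nr4a1 was at 13.4, 18.6 and 17.7 TPM in VCP TG hearts, against 6.86, 114, 16.9 and 15.2 TPM in WT hearts (-0.38 ± 0.90). Btg2 was at 11.4, 15.2 and 13.3 TPM in VCP TG hearts, against 12.3, 50.7, 8.83 and 10.3 TPM in WT hearts (-0.23 ± 0.55). Both were high in the library labelled WT replicate 2 and not in replicate 4, which had the highest Fos, Fosb, Jun and Zfp36.
Junb was at 11.6, 16.1 and 14.4 TPM in VCP TG hearts, against 4.04, 35.3, 19.4 and 21 TPM in WT hearts (-0.18 ± 0.62). Jun was at 19.3, 24.2 and 19.0 TPM in VCP TG hearts, against 14.2, 24.2, 10.5 and 27.3 TPM in WT hearts (0.21 ± 0.30). Ier2 was at 7.47, 9.21 and 4.20 TPM in VCP TG hearts, against 2.45, 10.5, 3.80 and 6.2 TPM in WT hearts (0.33 ± 0.40). All 3 overlapped between the genotypes.
Zfp36 was at 29.0, 36.2 and 31.0 TPM in VCP TG hearts, against 10.9, 38.7, 29.4 and 63.8 TPM in WT hearts (0.08 ± 0.50). Atf3 was at 1.75, 2.04 and 7.65 TPM in VCP TG hearts, against 4.49, 11.4, 5.52 and 10.2 TPM in WT hearts (-1.01 ± 0.45). The Atf3 groups overlapped through the library labelled VCP TG replicate 3, the one with 39.1 TPM of Vcp. The median over the members was -0.11, against 0.03 for all 13986 genes tested. It was 0.28 without WT replicate 2, -0.16 without WT replicate 3 and -0.05 without VCP TG replicate 3, the libraries whose Vcp went against their labels. Without WT replicate 1 it was -0.73, with 8 of 10 below 0, and without WT replicate 4 it was 0.18. The groups were apart for 0 of the 10, where 3.40% of all genes were higher and 1.74% lower without overlap. By limma 0 of the 10 were called, where 0.00715% of all genes were. At an unadjusted p under 0.05 there were 0 members, where 4.49% of all genes were.

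Levels of the members went together from library to library. Over the 15 libraries of 2 weeks, Pearson's r of log2(TPM + 1) had a median of 0.92 over the 45 pairs of members, from 0.60 (Egr1 with Atf3) to 0.99 (Junb with Zfp36). The median of Spearman's rho was 0.83. This correlation was part of how the genes were chosen, and all pairs share the same libraries, so it is a description. Taking out the group means left a median r of 0.90, and doing so without VCP TG sham replicate 3 left 0.81. Without the 2 libraries farthest from the median (VCP TG sham replicate 3 and WT sham replicate 2) it was 0.84. Rescaling to nuclear protein-coding genes, which removes the mitochondrial share from the total, gave 0.92.

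Atf3 was the loosest member at 2 weeks, with a median r of 0.69 with the other 9, against 0.93 over the 36 pairs without it. Within groups it was as tight as the rest, at 0.92 for deviations from group means. Jun was next, with a median r of 0.80 over all 15 libraries and 0.39 without the 2 libraries farthest from the median. Over the 7 libraries of 5 weeks the median over the 45 pairs was 0.64 (rho 0.64), from -0.06 for Ier2 with Atf3 to 0.97 for Fos with Zfp36. Without the libraries farthest from the median (WT replicates 1 and 2, leaving 5) it was 0.34, so the relation at 5 weeks rests largely on those. Nr4a1 with Btg2 (0.89) and Fos with Zfp36 (0.97) were tight pairs there, while Btg2 with Zfp36 had 0.14 at 5 weeks and 0.89 at 2 weeks. Junb with Zfp36 kept 0.84 at 5 weeks. Without WT replicates 1 and 2, Nr4a1 with Btg2 had 0.44, Junb with Zfp36 0.64 and Fos with Zfp36 0.97.

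**Figure D4:**
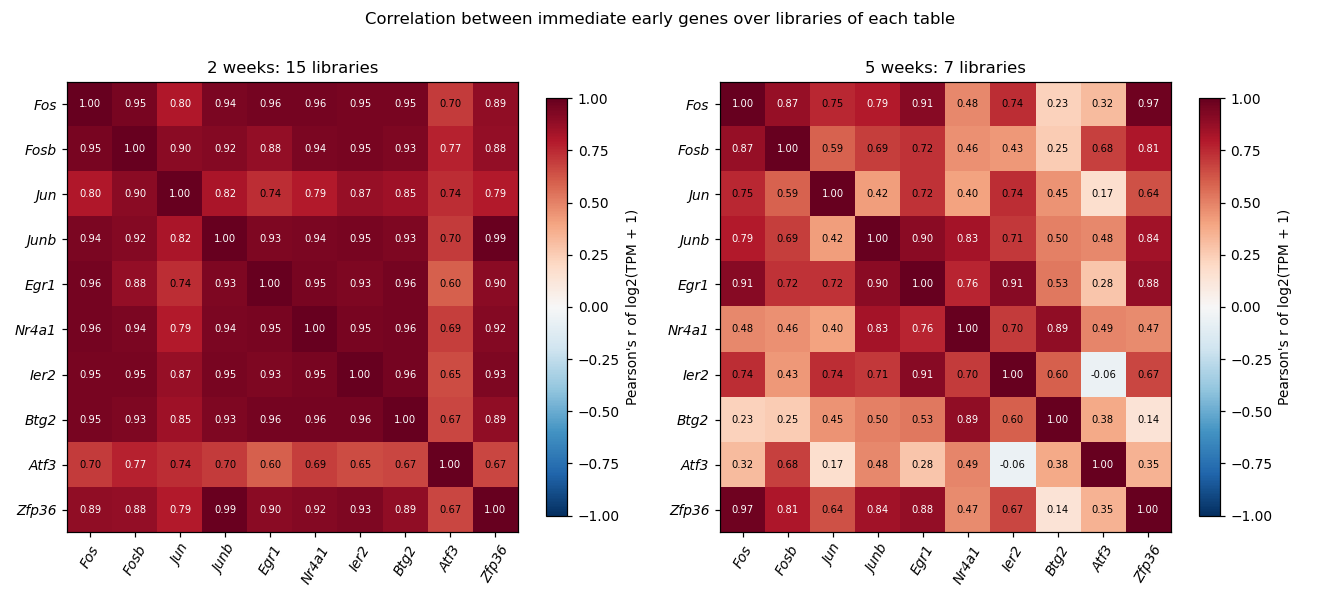
Pearson's r of log2(TPM + 1) between each pair of the 10 genes over the 15 libraries of 2 weeks (left) and the 7 of 5 weeks (right), on a colour scale from -1 to 1. At 2 weeks the Atf3 row is the palest, down to 0.60 with Egr1. At 5 weeks every gene has a pair under 0.50, and Fos, Fosb, Jun, Nr4a1, Btg2, Atf3 and Zfp36 each have several.

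**Figure D5:**
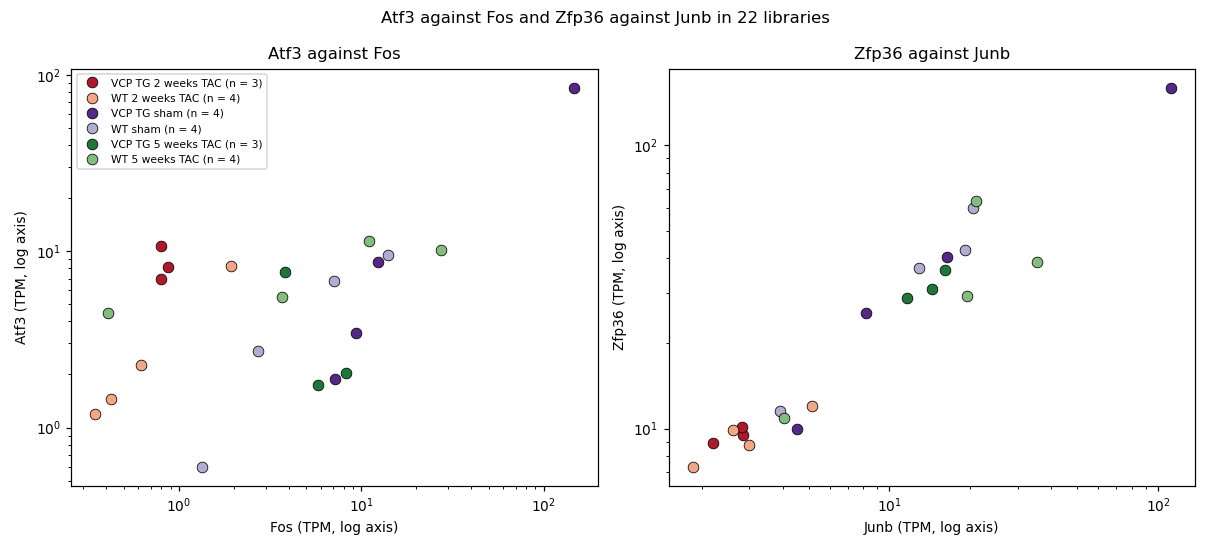
Atf3 against Fos (left) and Zfp36 against Junb (right) in TPM on log axes, 1 point for each of the 22 libraries, coloured by group. The 3 VCP TG libraries of 2 weeks TAC have Fos near the bottom of its range with Atf3 at 6.98 to 10.7 TPM, while Zfp36 follows Junb over the whole range.

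Genes outside the set that followed it most closely were ranked by the r of their deviations from group means with the mean deviation of the 10 members over the 15 libraries of 2 weeks, among 7427 protein-coding genes with a mean of at least 5 TPM. The first 8 were Abra (0.95), an actin-binding protein of striated muscle, Errfi1 (0.95), a feedback inhibitor of the EGF receptor, the chemokine Cxcl1 (0.94), the polyamine acetyltransferase Sat1 (0.93), Tent5a (0.93), the predicted gene Gm47283 (0.93), Emd (0.93), which codes for emerin of the nuclear envelope, and Skil (0.93), a repressor of SMAD signalling. The median over all genes ranked was 0.52. When VCP TG sham replicate 3 was left out, the r of these 8 lay between 0.81 (Emd) and 0.93 (Gm47283), and the median over all genes was 0.38. Of 24 genes over 0.9, 3 were also over 0.9 without VCP TG sham replicate 3. Cxcl1 alone of the first 8 was as close at 5 weeks (0.94 over 7 libraries); Errfi1 had 0.48, Sat1 0.34, Skil 0.09, Emd -0.10, Tent5a -0.36, Abra -0.39 and Gm47283 -0.75. Cxcl1 was between 0.361 and 1.76 TPM in the 7 hearts of 2 weeks TAC. In sham hearts it was at 5.68, 3.81, 44.3 and 1.90 TPM with the transgene, against 1.13, 7.37, 6.58 and 10.6 TPM in WT.

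A wider list of 61 other early response genes, of which 58 were tested at 2 weeks, sat below the median of all genes after TAC. In VCP TG, 55 of the 58 lay below that median (list median -0.60, all genes 0.02), and in WT 52 did (list median -0.70, all genes -0.13). Without VCP TG sham replicate 3 the VCP TG median was -0.20, against 0.16 for all genes, with 44 of 57 below it. By limma 0 of the 58 passed the threshold in either genotype, while 10 in VCP TG and 18 in WT had an unadjusted p under 0.05, as 8.77% and 11.4% of all genes did in those comparisons. The largest differences in VCP TG among those with a mean of at least 5 TPM were those of Egr3 (-2.02 ± 0.92), Ccn1 (-1.96 ± 0.74), which codes for a matricellular protein, Dusp1 (-1.80 ± 0.69), a phosphatase that switches off MAP kinases, and Klf2 (-1.67 ± 0.59), a flow-responsive factor of endothelium. Without VCP TG sham replicate 3 these were -1.18 for Egr3, -1.22 for Ccn1, -1.15 for Dusp1 and -1.19 for Klf2. Egr3 reached the mean of 5 TPM through that library: it was at 0.691, 0.635 and 0.366 TPM in VCP TG TAC hearts, against 9.99, 1.61, 35.2 and 0.532 TPM in VCP TG sham hearts, with sham replicate 4 inside the TAC range. Dusp1 was at 14.7, 15.5 and 18.4 TPM in VCP TG TAC hearts, against 75.2, 42.6, 231 and 15.3 TPM in VCP TG sham hearts. Its groups met at sham replicate 4, the library with 72.9% mitochondrial transcripts, as did those of Zfp36.

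In WT the largest were Nr4a3 (-1.68 ± 0.90), Per1 (-1.68 ± 0.47), a clock gene that also answers to acute signals, Ccn1 (-1.66 ± 0.68) and Nfkbia (-1.62 ± 0.41), the inhibitor of NF-kappa-B. Per1 was at 12.4, 14.5, 8.21 and 12.2 TPM in WT TAC hearts, against 29.4, 32.0, 52.4 and 48.9 TPM in WT sham hearts. Nfkbia was at 9.72, 7.14, 6.15 and 7.64 TPM in WT TAC hearts, against 14.5, 18.3, 34.9 and 44.3 TPM in WT sham hearts. For Per1 and Nfkbia the WT groups were apart, and the highest sham hearts were replicates 3 and 4, not replicate 2 as for most members. Among the WT hearts of 2 weeks, WT TAC hearts had 437 to 768 TPM summed over 20 glucocorticoid and clock genes, against 623, 991, 2762 and 1938 TPM in sham replicates 1 to 4. The 5 neutrophil markers summed to 13.1 to 17.2 TPM in WT TAC hearts, against 15.6, 14.5, 76.4 and 48.3 TPM in those sham hearts. Their part in the result was not tested. In the limma fit of the 8 WT libraries alone, 5 of 57 list genes fell: Per1 (adjusted p = 0.0120), Nfkbia (0.0213), Csrnp1 (0.0309), Rhob (0.0412) and Sertad1 (0.0451), where 6.31% of all genes were lower.

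Nr4a3, a close relative of Nr4a1, resembled Atf3 and not Nr4a1 at 2 weeks TAC. It was at 18.9, 22.9 and 26.0 TPM in VCP TG hearts, against 17.7, 4.92, 3.85 and 3.75 TPM in WT hearts (log2 difference 1.72 ± 0.97, adjusted p = 0.693 by limma). Its groups did not overlap, where 19.0% of all genes tested were higher and apart, but the WT value nearest to the VCP TG hearts, 17.7 TPM, came from replicate 1, again the heart labelled WT with high Vcp. The other list genes gave no call between the genotypes: 0 of 58 in sham hearts (1 at an unadjusted p under 0.05; list median -0.07, all genes -0.01), 0 of 58 at 2 weeks TAC (0 unadjusted; -0.02, all genes 0.16) and 0 of 57 at 5 weeks TAC (3 unadjusted; -0.12, all genes 0.03). Between the TAC responses, 0 of 58 were called, 0 also unadjusted, and the list median was 0.08, against 0.22 for all genes. Without VCP TG sham replicate 3 these medians were 0.44 and 0.38. Of all genes, 3.96%, 9.58%, 4.49% and 5.01% had an unadjusted p under 0.05 by limma in these comparisons, in that order.
In sham hearts the largest differences were those of Ptgs2 (1.47 ± 0.94), Nr4a2 (1.14 ± 0.87), Cebpd (-1.06 ± 0.56) and Maff (-0.93 ± 0.59). Ptgs2, the inducible cyclooxygenase, was at 3.35, 0.265, 54.5 and 1.05 TPM in VCP TG sham hearts, against 0.477, 0.681, 1.06 and 1.10 TPM in WT sham hearts, so its difference rests on VCP TG sham replicate 3. Without that library the differences were 0.31 for Ptgs2, 0.09 for Nr4a2, -1.61 for Cebpd and -1.51 for Maff, and the list median was -0.52, against -0.17 for all genes.

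Within groups at 2 weeks, 36 genes of the wider list with a mean of at least 5 TPM had a median r of 0.78 with the mean deviation of the members, against 0.52 for all 7427 genes ranked. Without VCP TG sham replicate 3 these were 0.59 and 0.38. At 5 weeks they were 0.12 and -0.29. Of the 36, 34 were over 0.5 at 2 weeks and 9 in both tables, among them Dusp1 (0.92 and 0.87), Nr4a2 (0.85 and 0.75), Hes1 (0.81 and 0.82) and Per1 (0.77 and 0.93).

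The kinases and factors that drive immediate early transcription were close to the median of all genes in transcript level differences. The 31 upstream regulators include Srf, the Elk and Creb factors, the MAP kinases and their activators. Of the 31, 0 were called by limma in any of the 6 comparisons. In WT TAC against sham 1 had an unadjusted p under 0.05, where 11.4% of all genes did. In the other 5 comparisons 0 had, where 3.96% to 9.58% of all genes did. The median difference of the 31 was -0.04 in VCP TG TAC against sham and -0.17 in WT TAC against sham. These were near the medians of all genes (0.02 and -0.13). With sham replicate 3 left out, the VCP TG median was 0.15, against 0.16 for all genes. In WT, Mapkapk2, a kinase downstream of p38, was at 35.6 ± 7.84 TPM after TAC and 62.1 ± 13.4 TPM after sham (SD, n = 4 each; log2 difference -0.79 ± 0.35, adjusted p = 0.410 by limma). Known targets of AP-1 and Egr1 (20 listed, 17 tested) had medians of -0.16 in VCP TG and -0.65 in WT for TAC against sham. In either 0 were called by limma. At an unadjusted p under 0.05 there were 0 and 6, where 8.77% and 11.4% of all genes were. Thbs1, a matricellular protein, was at 2.80 ± 0.618 TPM in VCP TG TAC hearts and 19.2 ± 29.6 TPM in VCP TG sham hearts (n = 3 and 4; -1.34 ± 1.09), and at 2.80 ± 2.10 TPM in WT TAC hearts and 32.1 ± 30.9 TPM in WT sham hearts (n = 4 each; -2.55 ± 1.01). The VCP TG values without sham replicate 3 were -0.04 for the median of these targets and -0.41 for Thbs1.

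The 12 heat shock genes, which respond to misfolded protein, had a median of -0.33 in VCP TG TAC against sham, with all 12 below the median of all genes, and of 0.34 in WT TAC against sham, with 10 above it. In both comparisons 0 were called by limma (1 and 2 at an unadjusted p under 0.05, where 8.77% and 11.4% of all genes were). Leaving out VCP TG sham replicate 3, the VCP TG median was -0.32, with 12 of 12 below that of all genes, and the genotype median in sham hearts was 0.44. In WT the list summed to 1567, 985, 900 and 976 TPM after TAC, against 764, 1602, 885 and 1048 TPM after sham. The highest TAC sum was that of replicate 1, whose Vcp went against its label. The part of that library in the WT median was not tested. Between the genotypes the list median was 0.46 in sham hearts, -0.29 at 2 weeks TAC and -0.34 at 5 weeks TAC. In each 0 were called by limma, and 3, 0 and 0 had an unadjusted p under 0.05. Of all genes, 3.96%, 9.58% and 4.49% had. Hspa1b, an inducible HSP70, was at 6.53 to 8.12 TPM in VCP TG TAC hearts, against 6.93 to 32.3 TPM in VCP TG sham hearts (log2 difference -1.16 ± 1.15, and -1.07 without sham replicate 3). In WT it was at 4.97 to 73.7 TPM after TAC, against 1.39 to 63.2 TPM after sham (1.03 ± 1.06), so the groups overlapped in both genotypes. Hspa1a and Hspa1b are near-identical copies, so the split of their reads is uncertain. The glucocorticoid and clock list had medians of -0.01 in VCP TG and -0.50 in WT for TAC against sham, and of -0.07 in sham hearts, 0.15 at 2 weeks TAC and 0.20 at 5 weeks TAC for VCP TG minus WT. By limma 0 were called in each of these 5 comparisons, and 0, 4, 5, 1 and 1 had an unadjusted p under 0.05. Of all genes, 8.77%, 11.4%, 3.96%, 9.58% and 4.49% had. The list median without VCP TG sham replicate 3 was 0.25 for VCP TG TAC against sham and -0.29 between the genotypes in sham hearts.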

How the data were processed

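RNA sequencing of 22 left ventricular libraries was analysed. The authors deposited TPM in 1 table for 2 weeks and 1 for 5 weeks; the unit was taken from the values, since the columns add up to 1000000 each. The submitters' processing notes list Trimmomatic 0.35, kallisto 0.43.1, STAR 2.5.4b, DESeq2 and GRCm38, without saying which of them made the tables. Depth is unknown, and because TPM share a fixed total, more of an abundant transcript means less of the rest. Columns were matched to samples by name, and 0 columns were left over. Names and positions came from GENCODE release M21, in which 30074 of 30735 identifiers were found.

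Limma 3.58.1 in R 4.3.3 was fitted to log2(TPM + 1) with trend and robust moderation, 1 mean per group, and each table on its own. The code was run on simulated data with planted changes. Those values were independent and normally distributed, unlike these libraries, so that run does not vouch for the calls here. A gene entered the fit if 3 or more libraries reached 1 TPM. Tests were two-sided, p-values were adjusted by Benjamini-Hochberg over every gene in the fit, and the threshold was 0.05. Log2 differences on this scale understate changes of low genes. Nothing says that libraries are separate animals, so p-values measure the spread between libraries. Alternatives were a pseudocount of 0.1, no filter, rescaling, quantile normalization, limma with neither trend nor robust moderation, and fits of the compared libraries alone. Others were a replicate block and leaving out libraries.

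The members and all lists were chosen with earlier results of these data known, and the early response list overlaps one whose result was known. Named were the 10 members, list genes past the threshold, otherwise up to 4 per list and comparison with the largest difference and a mean of at least 5 TPM, and the 8 genes most like the members; of these the text gives some. Hes1, Csrnp1, Rhob and Sertad1 were named after their values were seen. Replicate numbers recur between groups with no stated meaning. Same-numbered sham libraries deviated together across genes (r of 0.107 to 0.26 in all 4 pairs). In the other comparisons not every pair did (lowest r -0.225). A second fit took the replicate number as a block shared by all groups of a table. It thus did not pair the sham libraries alone.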

Additional observations from a re-analysis of the deposited data

Results flagged for a closer look

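In a group of 4, a library was marked where its gap to the nearest other library exceeded 0.829 of the group's whole range. Of 40 groups of 4 examined over the 10 genes, 10 were marked. Chance marks about 1 in 20 groups if values are normally distributed, but TPM are skewed and the genes were chosen by these levels, so the number of marks is a description only. VCP TG sham replicate 3 stood apart for Fos (146 TPM, nearest 12.3), Fosb (58.3 TPM, nearest 2.16), Junb (112 TPM, nearest 16.4), Nr4a1 (229 TPM, nearest 33.4), Ier2 (41.6 TPM, nearest 9.18) and Atf3 (84.8 TPM, nearest 8.68). At 2 weeks TAC, replicate 1 of the hearts labelled WT stood apart for Egr1 (12.5 TPM, nearest 5.00) and Atf3 (8.22 TPM, nearest 2.25). At 5 weeks TAC, replicate 2 of the hearts labelled WT stood apart for Nr4a1 (114 TPM, nearest 16.9) and Btg2 (50.7 TPM, nearest 12.3). The 10 genes share their libraries, so these marks are not independent of each other.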

How the results depend on the processing

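Depth is unknown, and groups hold 3 or 4 libraries. Counts of genes called by limma moved with most choices; the cause was not tested. The main fits called 0 genes in VCP TG against WT sham, 0 in WT TAC against sham, 120 in VCP TG TAC against sham, 14 in VCP TG against WT at 2 weeks TAC, 1 in the difference of the TAC responses and 1 at 5 weeks TAC. A pseudocount of 0.1 gave 1, 8, 2, 1 and 0 in the 5 comparisons of 2 weeks, in that order. Without a filter the last 3 of those had 1846, 634 and 24. Rescaling gave 21 in WT TAC, 6 at 2 weeks TAC, 0 in the difference of responses and 0 at 5 weeks, and 1 early response gene in VCP TG TAC. Quantile normalization gave 2, 9 and 2 (WT TAC, genotype at 2 weeks TAC, difference of responses) and 1 early response gene in VCP TG TAC. Limma with neither trend nor robust moderation gave 2 in the difference of responses. Fits of the compared libraries alone gave 2 in sham, 964 in WT TAC with 5 early response genes, 53 in VCP TG TAC and 8 at 2 weeks TAC. Leaving out the libraries with over 100 TPM of Myl7, added after seeing the data, gave 732 with 10 early response genes in WT TAC, 55 in VCP TG TAC, 0 at 2 weeks TAC, 0 in the difference of responses and 3 at 5 weeks. With the replicate number as a block shared by all groups of a table, 0 were called in sham. Elsewhere, where not every same-numbered pair deviated together, the block gave 2 in WT TAC, 102 in VCP TG TAC and 5 at 2 weeks TAC. It gave 0 in the difference of responses and 0 at 5 weeks. Leaving out 1 library at a time gave 0 to 1 in sham, 0 to 1 in WT TAC, 1 to 753 in VCP TG TAC, 1 to 15 at 2 weeks TAC, 0 to 4 in the difference of responses and 0 to 3 at 5 weeks, and 0 to 1 early response genes in VCP TG TAC. The lowest counts in VCP TG TAC and at 2 weeks TAC came without VCP TG TAC replicate 1. The median correlation of the members at 5 weeks was 0.34 without the 2 libraries farthest from the median, against 0.64. Of 977 log2 differences of members recomputed under these alternatives, 976 lay within 1 SD of the main value, a wide band here (0.49 to 1.59 on the log2 scale). The sign turned in 66 of them, among them 9 without VCP TG sham replicate 3, 8 without the libraries rich in Myl7, 6 on rescaling and 5 with the replicate block. Fosb in VCP TG TAC against sham was -3.75 at a pseudocount of 0.1.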
